A study of Mus musculus with 8 samples.

Results

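Immunoglobulin gene segments were read on 209 probe sets in RNA from the thoracic aortic endothelium of 4 mice in which Mef2c had been deleted from endothelium by induction (EKO) and 4 control littermates. A probe set is a group of array probes summarised to 1 value. The segments were chosen by name: each probe set had to carry a single gene symbol starting with Ighv, Ighd, Ighj, Ighg, Ighm, Igha, Ighe, Igkv, Igkj, Igkc, Iglv, Iglj or Iglc, and 209 of 30604 probe sets with a single symbol did, out of 72688 in the whole value table. The first letters alone also took in Ighmbp2, a helicase gene that is no antibody segment, so 208 probe sets belong to antibody genes. No measured value entered the choice.

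Immunoglobulins are the antigen receptors and secreted antibodies of B cells and plasma cells. In the germline their variable (V) and joining (J) segments lie in arrays at a heavy chain locus and at kappa and lambda light chain loci. Diversity (D) segments lie at the heavy chain locus alone. Each developing B cell joins 1 segment of each kind that a locus holds by recombination. A mature transcript thus carries a rearranged variable region in front of a constant region. The constant region sets the class, and IgM, encoded with Ighm, is the class that B cells make first. Endothelial cells are not known for rearranging these loci, and B cells are found around the aorta in the adventitia and the surrounding fat.

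All 8 mice were female, carried Cdh5-CreERT2, a tamoxifen-inducible recombinase driven by the promoter of the endothelial cadherin gene Cdh5, and had both Mef2c alleles floxed (Mef2c f/f). EKO mice received 5 daily injections of tamoxifen at 10 weeks of age, and control littermates received injections of the vehicle alone, sunflower seed oil with 10% ethanol. The aortas were collected on day 14 from the first injection, and each array held RNA flushed with TRIzol from the lumen of a single aorta. Tamoxifen was given to EKO mice alone, so the effects of the drug and of the deletion cannot be told apart here.

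Mef2c itself had log2 values of 9.56, 9.73, 9.66 and 10.03 in EKO aortas, against 9.62, 9.79, 9.88 and 9.80 in control aortas, so its single probe set did not separate the groups. Which exons lay between the loxP sites is not in the labels, so this value cannot check the deletion. Any pair of arrays correlated at r = 0.981 to 0.993 over the tested genes, a description only. The mean of 13 endothelial markers lay between 12.6 and 12.8 on every array, while 8 measured adipocyte markers, genes of fat cells, averaged 8.27 to 10.37 on EKO arrays and 8.75 to 11.03 on control arrays.

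The 209 probe sets were unevenly spread over the loci. The heavy chain locus on chromosome 12 contributed 113 V segments, 4 D segments and the constant regions Ighm, Ighg1, Ighg2b and Ighe. The kappa locus on chromosome 6 contributed 86 V segments and 1 J segment, Igkj3. No lambda segment had a probe set of its own. RefSeq lists 10 of the 199 V segments, among them Ighv1-2, and all 4 D segments as pseudogenes. A further 25 probe sets carried several symbols with an immunoglobulin segment among them, and the kappa constant region gene Igkc was found on such shared probe sets only, so it has no value here. Many V segments are close copies of each other, and hybridisation cannot always separate them. Ighd5-7 and Ighd6-1 had identical values on all 8 arrays, as did Ighv1-62-2 and Ighv1-71. Each of these pairs is in effect 1 measurement, though the counts here include both of its members.

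Most immunoglobulin segments lay under the median of the array's negative control probe sets, as did a smaller majority of all genes. The array has 5222 negative control probe sets, whose 95th percentile lay between 11.49 and 11.84 and whose median lay between 7.34 and 7.45 (log2) on the 8 arrays. None of the 209 members exceeded the 95th percentile on all 8 arrays, and 2, Ighv2-5 and Ighv1-2, exceeded it on at least 1 array. Among all 30063 genes, 1624 exceeded it on all 8. With the median of the negative control probe sets as the limit, 13 members (6.22%) lay above it on all 8 arrays and 159 (76.1%) on none. Of all genes 34.5% lay above it on all 8 and 58.6% on none. T cell receptor segments, the corresponding short segments of the other lymphocyte receptor, were close to the immunoglobulin segments on this measure. Of 130 probe sets 12 (9.23%) were above the median on all 8 arrays and 107 (82.3%) on none. The 99th percentile of the negative control probe sets lay between 14.7 and 15.3, so that some of them are bright and these limits are strict, and a probe set below them is not shown to lack RNA. Brightness differs between probe sets for reasons other than RNA level, so the levels of different members are not ranked against each other.

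**Figure D1:**
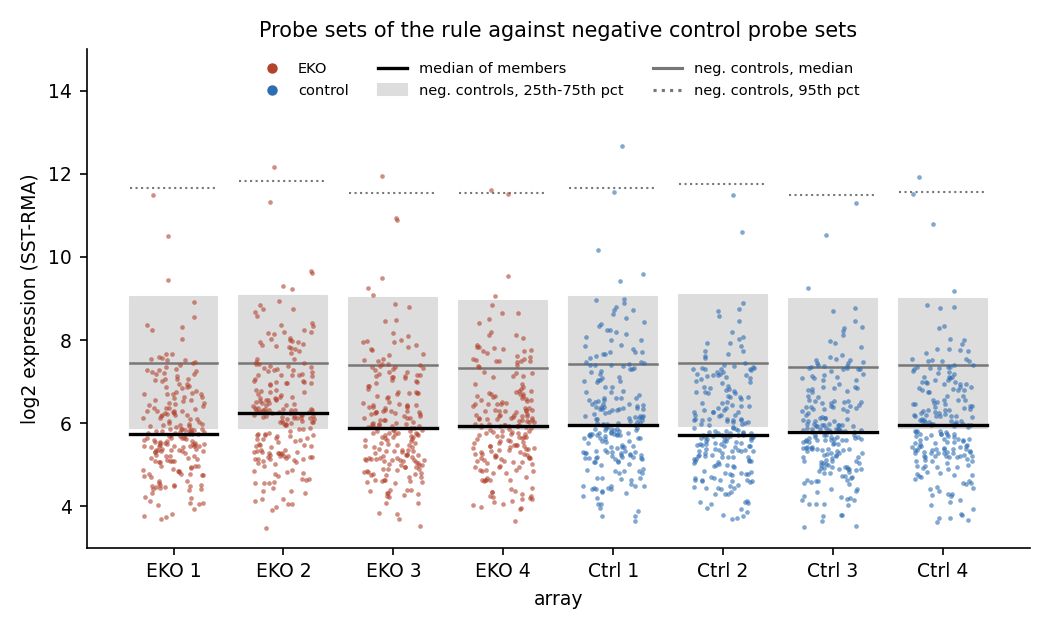
Log2 signal of the 209 immunoglobulin members on each of the 8 arrays, EKO arrays to the left of control arrays, beside the median and the 95th percentile of that array's negative control probe sets. The member medians lie between 5.72 and 6.24, below the negative control medians of 7.34 to 7.45 on every array.

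The 13 members above the negative control median on all 8 arrays were Ighm and 12 V segments. The V segments were Ighv1-2, Ighv1-56, Ighv10-1, Ighv2-2, Ighv2-3, Ighv2-4, Ighv2-5, Ighv2-9, Ighv2-9-1, Ighv4-1, Igkv15-103 and Igkv4-56. Of the 8 members of the Ighv2 family, 6 were in this group. The mean of the 13 members was 8.61, 9.32, 8.93 and 8.94 on the EKO arrays, against 9.22, 8.68, 8.62 and 8.95 on the control arrays. The groups overlapped, and the group means of 8.95 ± 0.29 in EKO aortas and 8.86 ± 0.28 in control aortas (SD, n = 4 each) lay within the spread of either group.

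No immunoglobulin member differed between EKO and control aortas after adjustment for all genes tested. Of the 209 members, 86 (41.1%) had a mean over the 8 arrays above 6.14, the median of all probe set means, and were tested with limma's moderated linear model among 16232 genes. Of these 86 members 0 passed a Benjamini-Hochberg adjusted p of 0.05, and 0 of all 16232 genes did (0%). The smallest adjusted p was 0.478, both over all genes and among the members. At an unadjusted p under 0.05, 5 of 86 members were higher in EKO aortas (5.81%), where 5.42% of all genes tested were, and 0 members were lower, where 3.51% of all genes tested were. Counted without the level filter, 13 of 209 members were higher (6.22%), where 6.6% of all genes were, and 2 were lower (0.957%), where 2.42% were. The share with a higher value is thus near its background in either count. Of the tested members, 7 reached the filter with an EKO mean above it and a control mean below it, and 2 the other way round. Just inside the filter stood Ighv1-23 (6.16) and Ighv14-1 (6.16), and just outside it Ighv1-86 (6.12) and Igkv8-21 (6.10).

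**Figure D2:**
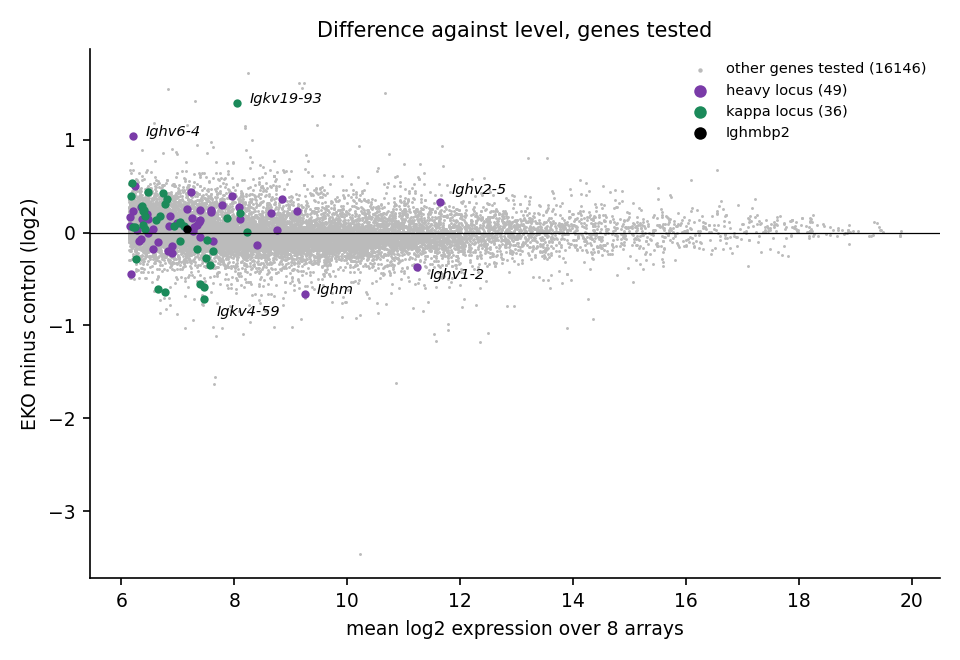
Difference of each gene tested, EKO minus control in log2 units, set against its mean log2 level over the 8 arrays, with the 86 tested members coloured by locus and all other genes in grey. Members lie on both sides of 0, with a median difference of 0.09, and the widest is Igkv19-93 at 1.40.

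Small differences leaned towards higher values in EKO aortas, by a margin over all genes that depended on which arrays were included. The EKO mean was above the control mean for 145 of 209 members (69.4%), where 59.4% of all 30063 genes had a positive difference. The median difference was 0.09 over the members and 0.03 over all genes, on the log2 scale. T cell receptor segments leaned the same way, with 100 of 130 (76.9%) higher and a median of 0.11, so the lean is not particular to immunoglobulin segments. The share over all genes also depends on level: among genes above the level filter it was 44.9%. Of the members 41.1% were above that filter, against 54.0% of all genes. The array EKO 2 gave the highest value of the 8 for 83 members (39.7%), where it did so for 24.6% of all genes. Without EKO 2, 113 members (54.1%) were higher, where 57.8% of all genes were, and the median differences were 0.01 over the members and 0.02 over all genes. Without control 3, 60.8% of members were higher, where 59.2% of all genes were, and without control 2 the shares were 62.7% and 60.4%. Among the 86 tested members, 50 were still higher without EKO 2, with a median difference of 0.04, where that of all genes tested was -0.0065. The array EKO 2 also had the highest array median over all probe sets, 6.24, against 6.06 to 6.19 on the other 7 arrays. The part of this offset in the members' lean was not tested. A fit that included each array's median as a term had 34 of the 86 tested members higher in EKO aortas. Its median difference was -0.06 over these members and 0.004 over all genes tested. The fit without it had 60 of 86 higher, where 44.9% of all genes tested were. With quantile normalization 55 of 86 were higher, with a median of 0.07, where that of all genes tested was -0.02. With each array centred on its median 49 of 86 were higher, with a median of 0.03, where that of all genes tested was -0.08. The share of all genes tested that were higher is not given for these other fits. Array medians ran from 6.10 to 6.24 in EKO and from 6.06 to 6.15 in control aortas. They are thus in part tied to group, and the term also takes up group difference.

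Among the constant regions, Ighm, the mu heavy chain of IgM, was the one above the level filter. It was also the one above the negative control median on all 8 arrays, though above the 95th percentile on 0. Probe sets that carry Ighm with another symbol are not counted here. Their differences were -0.20 (with Ighg3), 0.07 (with Igkv8-27), 0.41 (with Ighv2-6) and 0.16 (with Ighv2-7). The log2 values of the Ighm probe set were 9.46, 8.68, 7.96 and 9.55 in EKO aortas, against 10.16, 8.08, 9.26 and 10.80 in control aortas. The values overlapped: control 2 lay below 3 of the 4 EKO arrays, while control 1 and control 4 lay above all of them. The means were 8.91 ± 0.74 in EKO aortas and 9.58 ± 1.18 in control aortas (SD, n = 4 each), a difference of -0.66 with an SE of 0.59 and a 95% interval of -2.002 to 0.677 (limma, adjusted p = 0.721). The interval holds values on both sides of 0, so these arrays do not settle a direction for Ighm. In bulk RNA such as this, fewer cells of a type and less RNA per cell cannot be told apart.

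The constant regions of the switched classes stayed below the level filter. Ighg1, the gamma 1 chain of IgG1, had 5.69, 5.95, 5.97 and 5.97 in EKO aortas, against 5.72, 5.78, 5.64 and 5.74 in control aortas. Ighg2b, the gamma 2b chain, had 5.44, 6.24, 5.66 and 6.19 in EKO aortas, against 5.85, 5.60, 5.60 and 5.39 in control aortas. Ighe, the epsilon chain of IgE, had 5.38, 5.60, 5.51 and 5.36 in EKO aortas, against 5.29, 5.51, 5.09 and 5.22 in control aortas. All 3 lay under the negative control median on every array, and the groups overlapped for each. Their differences of 0.17, 0.27 and 0.18 did not pass limma's test on all genes without the level filter.

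The naming rule took the 10 V, D or J members with the highest mean signal, which is no order of RNA levels, and among them were Ighv2-5 and the pseudogene Ighv1-2, the members that exceeded the negative control 95th percentile on some arrays. Ighv2-5 had 11.49, 12.17, 11.94 and 11.60 in EKO aortas, against 11.56, 11.50, 11.30 and 11.53 in control aortas. All EKO arrays but EKO 1 lay above every control array, and the difference of 0.33 (SE 0.15) had an adjusted p of 0.567 in limma. Ighv1-2 had 10.51, 11.32, 10.89 and 11.52 in EKO aortas, against 12.66, 10.60, 10.52 and 11.93 in control aortas. Control 1 stood above all other arrays for Ighv1-2, and the difference of -0.37 (SE 0.48; limma, adjusted p = 0.811) became 0.04 without it. Of the other 8 V segments named by this rule, Ighv2-2 (0.36), Ighv2-4 (0.24), Ighv2-3 (0.21), Igkv4-63 (0.21), Ighv10-3 (0.15), Ighv10-1 (0.03) and Igkv4-56 (0.00) had differences at or above 0 and Ighv4-1 (-0.14) one below it, and none of them passed the limma test. These small differences turn sign for several of the segments when arrays are left out or scaled otherwise.

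The 5 members with the smallest p among those higher in EKO aortas were Igkv2-116, Ighv6-4, Igkv2-109, Igkv1-88 and Igkv1-135. Igkv2-116, a pseudogene in RefSeq, had 6.17, 6.79, 6.52 and 6.36 in EKO aortas, against 6.06, 5.99, 5.83 and 5.82 in control aortas. Every EKO array lay above every control array, and the difference was 0.54 (SE 0.13; limma, adjusted p = 0.478). Ighv6-4 had 6.49, 7.84, 6.45 and 6.14 in EKO aortas, against 5.52, 5.57, 5.93 and 5.74 in control aortas. The groups again did not overlap, and the difference of 1.04 (SE 0.33; limma, adjusted p = 0.514) was 0.67 without EKO 2. All of its values but that of EKO 2 lay under the negative control median, as did every value of Igkv2-116, so no fold is given. These were the 2 tested members whose EKO arrays all lay above all control arrays, where 3.41% of all genes tested did. Both are among the 7 members that the level filter admitted through the EKO arrays, with control means below it, so nothing is read from this count. No tested member had all EKO arrays below all control arrays, where 2.67% of all genes tested did. Igkv2-109 (0.43, adjusted p = 0.516 in limma), Igkv1-88 (0.36, adjusted p = 0.528) and Igkv1-135 (0.44, adjusted p = 0.545) had smaller differences.

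The 5 members with the smallest p among those lower in EKO aortas were Igkv4-55, Ighv11-1, Igkv4-80, Igkv4-62 and Igkv4-59, with differences of -0.61, -0.44, -0.64, -0.56 and -0.72 and adjusted p from 0.609 to 0.685 in limma. All but Ighv11-1, which the level filter admitted through the control arrays, belong to the Igkv4 family. Igkv4-59 had 5.94, 8.25, 6.72 and 7.54 in EKO aortas, against 8.99, 6.99, 7.83 and 7.50 in control aortas. EKO 1 was the lowest and control 1 the highest of the 8 arrays, and the groups overlapped.

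Outside the naming rule, Igkv4-90 was singled out after its values were seen, as the 1 member of all 209 whose EKO arrays all lay below all control arrays, where 1.66% of all genes without the filter did; 3 of 209 members lay above in the same way, where 4.25% of all genes did. It had 4.97, 5.64, 5.46 and 5.27 in EKO aortas, against 5.82, 6.42, 6.20 and 6.17 in control aortas. All 8 values lay under the negative control median and the member was below the level filter. Its difference of -0.82 (SE 0.17) had an adjusted p of 0.508 in limma's fit on all genes without the filter.

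**Figure D3:**
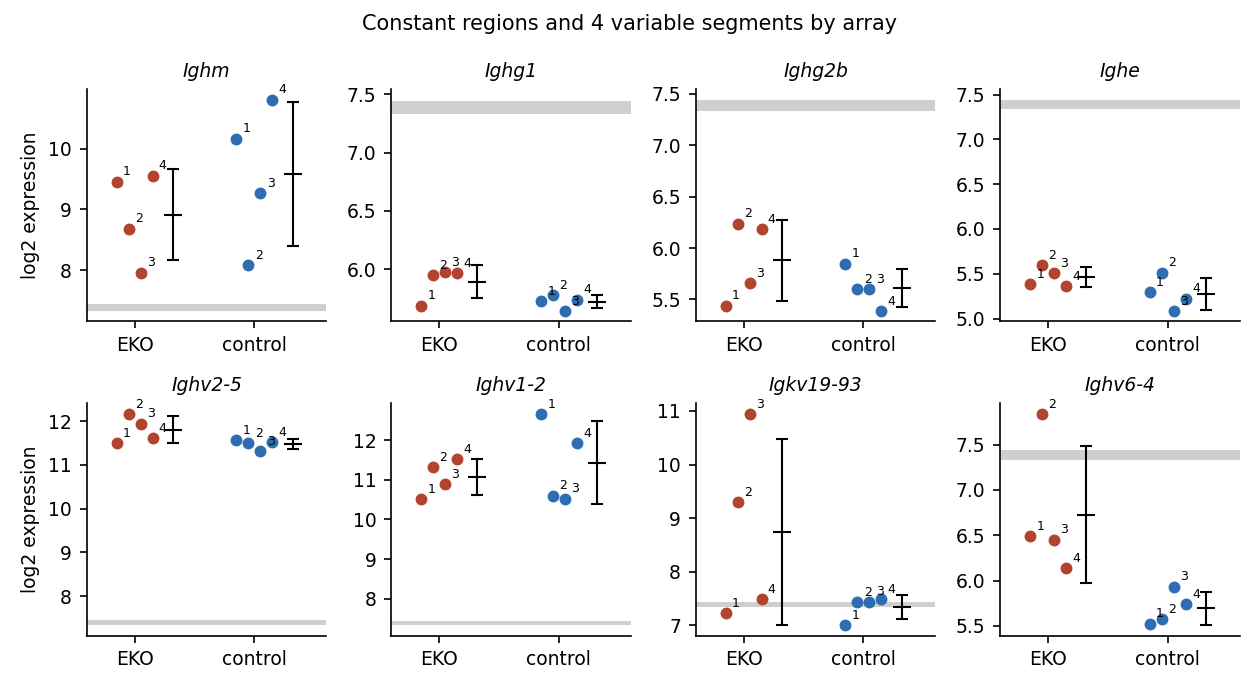
Log2 values on each array, EKO left of control, for the constant regions Ighm, Ighg1, Ighg2b and Ighe and the V segments Ighv2-5, Ighv1-2, Igkv19-93 and Ighv6-4, numbered by replicate, with group means and SD (n = 4 each) and a grey band for the range of the negative control medians over the arrays. Ighv6-4 shows no overlap between the groups (6.14 to 7.84 in EKO, 5.52 to 5.93 in control), and Ighm shows wide overlap.

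Segments differed widely in how much they varied between mice. The range over the 8 arrays had a median of 0.92 over the members and 0.449 over all genes. The widest was that of Igkv19-93, at 3.94. Igkv19-93 had 7.24, 9.30, 10.95 and 7.49 in EKO aortas, against 7.01, 7.44, 7.45 and 7.49 in control aortas. The array EKO 3 and then EKO 2 stood well above all others, while EKO 1 and EKO 4 lay at the level of the control arrays. The difference of 1.40 (SE 0.73; limma, adjusted p = 0.602) lay between 0.66 and 1.90 with 1 array left out in turn. The narrowest range of all 209 was 0.21, that of Ighmbp2, whose values averaged 7.19 ± 0.09 in EKO aortas and 7.15 ± 0.04 in control aortas (SD, n = 4 each).

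Some V families, Ighv2 and Igkv4 above all, varied together from array to array, and others did not. Correlations over the 8 arrays share their arrays and, within a family, near-identical sequence, and are given as a description. Over pairs of V segments from different families the mean Pearson correlation was 0.17, while it was 0.81 within the 8 Ighv2 segments, 0.61 within the 25 Igkv4 segments, 0.58 within the 9 Ighv5 segments and 0.23 within the 61 Ighv1 segments, the largest family. It was below the value between families in Igkv5 (0.057), Igkv6 (0.082) and Ighv3 (0.099) and about equal to it in Igkv12 (0.17).

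The Ighv2 family gave its highest value on EKO 2 in 8 of 8 segments. Its median was 7.97, 8.98, 8.62 and 8.27 on the EKO arrays, against 8.36, 8.26, 7.92 and 7.98 on the control arrays. All 8 segments were higher in EKO aortas, with a median difference of 0.27, and all 8 still were without EKO 2, with a median of 0.13. The direction depended on how array signal was handled. With each array's median as a term in the fit, 3 of 8 segments were higher and the median was -0.03. With the gap between positive and negative control probe sets as a term, 6 of 8 were higher with a median of 0.04. All 8 were higher with quantile normalization (median 0.29) and with each array centred on its median (median 0.20). None of the 8 passed the limma test.

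The Igkv4 family followed another pattern of arrays. Its median was 5.81, 7.42, 6.07 and 6.55 on the EKO arrays, against 7.44, 6.49, 6.86 and 6.47 on the control arrays. EKO 1 was the lowest array for 20 of the 25 segments, and the highest was control 1 for 12 and EKO 2 for 11. In EKO aortas 9 segments were higher and 16 lower, with a median difference of -0.10. That direction depended on single mice, with a median of 0.15 without EKO 1, 0.02 without control 1 and -0.32 without EKO 2. Of the 15 tested segments 3 were higher, with a median of -0.28. Without EKO 1, 9 of the 15 were higher, with a median of 0.03. With each array's median as a term in the fit 0 of the 15 were higher, with a median of -0.81. With the gap between positive and negative control probe sets as a term 1 of the 15 was higher, with a median of -0.50. Mice of the same group differed more in this family than the group medians did.

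**Figure D4:**
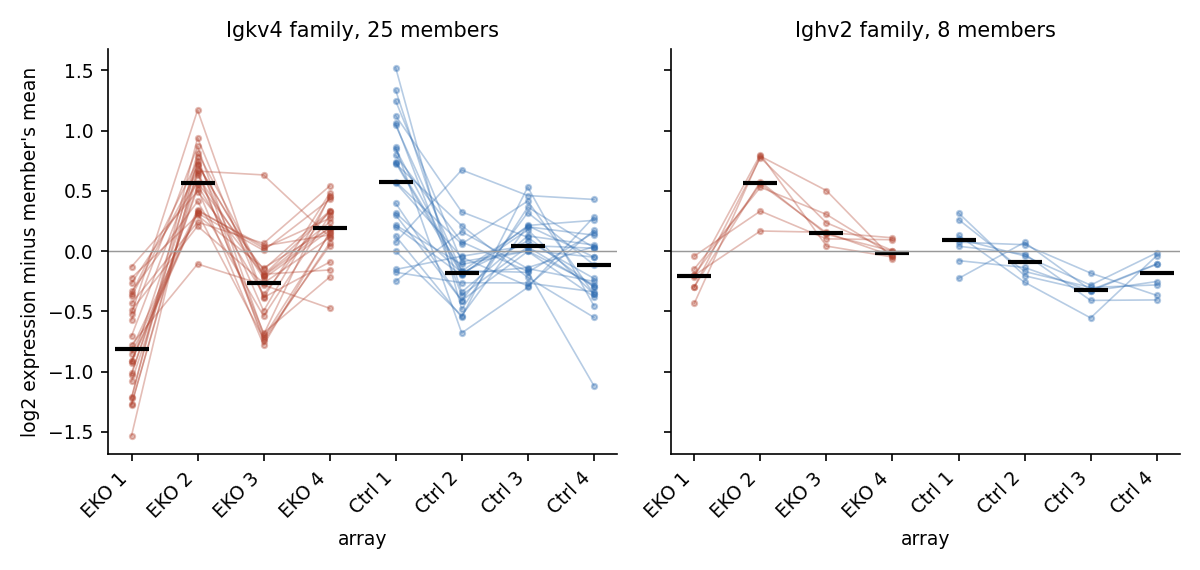
Values of the segments of the Igkv4 and Ighv2 families on each array, as deviations from each segment's own mean in log2 units, EKO arrays left of control arrays. A black bar is the median, and a thin line only joins the values of 1 segment, and the arrays have no order. The Ighv2 segments peak on EKO 2, and most Igkv4 segments dip on EKO 1 and peak on control 1 or EKO 2.

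Position in the heavy chain locus went with how many V segments gave signal. The 113 heavy V segments were put in the order of their RefSeq positions (assembly GRCm38.p6) and split in 4 bins, starting next to the D, J and constant segments. From that end, 23 of 29, 12 of 28, 6 of 28 and 7 of 28 segments were above the level filter, and 7, 2, 1 and 0 were above the negative control median on all 8 arrays. The first bin holds the Ighv2 and Ighv5 families and the last 2 bins hold Ighv1 and Ighv8 segments, so position, family and probe sequence differ together and cannot be told apart. The median EKO minus control differences of the bins, 0.16, 0.07, 0.01 and 0.08, were smaller than the 0.92 that a typical member ranged over the arrays. The 4 D segments were all below the level filter, at means of 4.45 to 5.10.

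Genes that mark B cells mostly lay under the array's negative control median, and none passed the test. Of 25 B cell markers 24 had a probe set, and 22 of those were above the negative control median on none of the 8 arrays, among them the B cell surface protein Ms4a1 (CD20), the antigen receptor signalling chains Cd79a and Cd79b and the lineage factor Pax5. The exceptions were the transcription factors Ebf1 and Bach2, above it on all 8, and both are also expressed outside B cells. Of all genes 58.6% were above it on none. So were 6 of 9 macrophage, 3 of 6 smooth muscle, 3 of 6 fibroblast and 2 of 13 endothelial markers. A marker below this limit is thus not shown to lack RNA. The mean of the 24 markers ran from 6.05 to 6.18 on EKO arrays and from 5.98 to 6.31 on control arrays. Control 4 was the highest array for 12 of the 24, and it was also the array with the highest Ighm. Ms4a1 had 5.89, 5.88, 5.95 and 6.07 in EKO aortas, against 6.25, 5.75, 6.06 and 6.97 in control aortas. The groups overlapped, and control 4 stood above the rest.

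Plasma cell and precursor genes did not separate the groups either. Jchain, the joining chain of polymeric IgM and IgA, had 7.65, 8.06, 7.40 and 7.32 in EKO aortas, against 7.76, 7.27, 7.40 and 8.02 in control aortas. The values interleaved, with a difference of -0.01 (limma, adjusted p = 0.994). Mzb1, a chaperone of immunoglobulin secretion, averaged 4.96 ± 0.25 in EKO aortas and 4.94 ± 0.33 in control aortas (SD, n = 4 each), below the level filter. The plasma cell list had 14 measured genes, and 4 were above the negative control median on all 8 arrays, where 34.5% of all genes were. Among the 4 were Sdc1 and Xbp1, which other cells also express. Jchain was above it on 6 of the 8 arrays. Of the 14 genes 8 were above it on none, where 58.6% of all genes were. Of 6 measured precursor and recombination genes, Vpreb2, a part of the surrogate light chain, had the smallest p, with a difference of 0.37 (limma, adjusted p = 0.544). No member of these lists passed the test.

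Cxcl13, the chemokine that draws B cells through Cxcr5, had the smallest p of the recruitment list. It had 7.58, 7.20, 7.30 and 6.99 in EKO aortas, against 8.85, 7.77, 8.43 and 8.12 in control aortas. Every EKO array lay below every control array, where 2.67% of all genes tested did the same. Cxcl13 was above the negative control median on 5 of the 8 arrays, which were EKO 1 and the control arrays. The difference was -1.03 with an SE of 0.23 (limma, unadjusted p = 0.00156, adjusted p = 0.478). It therefore did not pass after adjustment. The other recruitment genes named by the rule, Cxcl12 (0.29), Ccr7 (0.02) and Ltb (-0.02), had adjusted p from 0.689 to 0.964. Of 10 immunoglobulin receptor genes, 5 were tested and none passed; Fcer1g, the signalling chain shared by Fc receptors, had the smallest p, with a difference of 0.44 (adjusted p = 0.625 in limma), and Fcgrt, the receptor that protects IgG from breakdown, had -0.12 (adjusted p = 0.790).

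**Figure D5:**
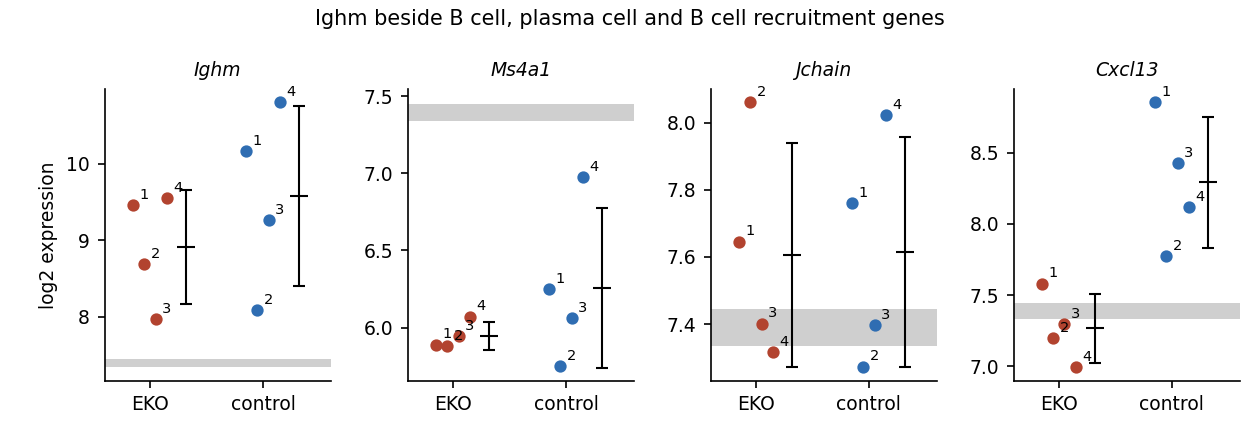
Log2 values by array, EKO left of control, of Ighm beside B cell, plasma cell and B cell recruitment genes, among them Ms4a1, Jchain and Cxcl13, with the range of the negative control medians as a grey band. Cxcl13 has no overlap between the groups (6.99 to 7.58 in EKO, 7.77 to 8.85 in control), while Ms4a1 stays under the band on every array.

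Some marker lists of other cells peaked on EKO 2, which was the highest array for 39.7% of members and 24.6% of all genes. Another peaked on control 4, which had the highest Ighm but did not stand out for the segments. Control 4 was the highest array for 18 members (8.61%), where it was for 9.71% of all genes. The mean of 6 neutrophil markers was 8.91 on EKO 2, against at most 7.57 on the other arrays, and the mean of 11 T cell markers was 6.93 on EKO 2, against at most 6.46 elsewhere. The mean of 5 mesothelium markers was 8.26 on control 4, against at most 6.68 elsewhere. Their part in the values of the segments was not tested. Ighm was set against the means of 15 marker lists over the 8 arrays with exact two-sided permutation tests. For the B cell list Pearson's r was 0.730 (exact p = 0.0375, adjusted over the 15 lists 0.188) and Spearman's rho was 0.643 (exact p = 0.0962, adjusted 0.360), and leaving out the 2 arrays with the most extreme list means gave r = 0.198, so that the relation rests on those arrays. For the macrophage list r was 0.752 (exact p = 0.0355, adjusted 0.188), rho was 0.667 (exact p = 0.0831, adjusted 0.360), and r was 0.748 with its 2 most extreme arrays left out. For the mesothelium list r was 0.704 (exact p = 0.0303, adjusted 0.188), rho was 0.500 (exact p = 0.216, adjusted 0.360), and r was 0.338 in the same check, so that it too rests on those arrays. None of the 15 relations passed after adjustment.

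Ighv2-5, the member with the highest mean signal, which the naming rule puts in place of Igkc, was also used to look for genes with a like pattern over the 8 arrays. Among 10861 genes the 10 closest were Mrm1, Olig2, Vax1, Irgm2, Asic4, Jsrp1, Btbd8, Apol8, Kcp and Cox4i2, with Pearson correlations of 0.948 to 0.965. Among the members the closest were Ighv2-2 (0.940), Ighv2-9-1 (0.937) and Igkv2-116 (0.918). These correlations share the 8 arrays and their overall signal levels, and are a description.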

How the data were processed

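RNA from 8 aortas was hybridised to Affymetrix Mouse Transcriptome Array 1.0 arrays after conversion of 5 ng total RNA. Per the labels, the authors summarised each probe set with SST-RMA in Expression Console, and the deposited values are on the log2 scale, as their range also shows. Genes were named from the platform annotation, with symbols, gene types and chromosomes from RefSeq GRCm38.p6; all 209 members matched. The sources used here do not give the array design's build, so no coordinates are printed.

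For each symbol the probe set with the highest mean was kept. Genes whose mean exceeded 6.14, the median over probe sets, entered the test in limma 3.58.1 (lmFit, eBayes) in R 4.3.3, EKO against control, without covariates, with Benjamini-Hochberg adjustment over all genes and a threshold of 0.05. The code was tested on simulated data. Permutation tests used scipy 1.17.1. Array files give no read depth; 4 arrays per group limit the precision. Each array is 1 mouse. Replicate numbers are shared between the groups. Deviations of same-numbered arrays from their group means correlated at r of -0.16, 0.21, -0.24 and 0.13, and those of the other pairs at -0.40 to 0.46. These values showed no pairing by number. They cannot exclude one, since other differences between arrays enter them too.

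Members, marker lists, tests and the naming rule were chosen with earlier results of these data known. The rule named every constant region, the 10 V, D or J members with the highest mean, the 5 with the smallest p in each direction, symbols taken in by their letters alone, the widest and narrowest range, up to 4 genes per marker list with the smallest p, and the 10 genes most like the brightest member. Alternatives covered the level filter, normalization, variance model, array covariates, replicate block and leaving out each array.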

Additional observations from a re-analysis of the deposited data

Results flagged for a closer look

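Within each group of 4 arrays, a lone array far from the other 3 was looked for in 82 groups of values, and 6 were found, where chance gives about 4.1 (1 in 20). Ighg1 in EKO aortas had its lowest value of 5.69 on EKO 1, with 5.95 to 5.97 on the others. Igkv19-93 in control aortas had its lowest value of 7.01 on control 1, with 7.44 to 7.49 on the others. Igkv4-62 in control aortas had its highest value of 8.63 on control 1, with 7.39 as the next. The macrophage marker mean in control aortas was lowest on control 2 at 6.63, with 7.21 as the next. The smooth muscle marker mean was lowest on control 1 at 7.86, with 8.16 as the next, and the mesothelium marker mean was highest on control 4 at 8.26, with 6.31 as the next.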

How the results depend on the processing

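In limma, 0 genes and 0 members passed in all 19 alternatives run, also at an adjusted p of 0.1; unadjusted p under 0.05 was reached by 0 of the 8 members left by the filter at the 75th percentile, by 15 of all 209 without a level filter, and by 2 to 12 of 86 members in the other alternatives. With each array's median as a term in the fit 10 of the 86 members reached it, 1 higher and 9 lower in EKO aortas. Of all genes tested 5.77% reached it in that fit. The replicate block, which treats same-numbered arrays as pairs, gave 0 calls, 1259 genes and 3 members at an unadjusted p under 0.05. The count of members above the negative control probe sets on all 8 arrays was 13 with their median as the limit, against 0 with the 95th percentile; the planned mean of the members above that percentile could not be run with 0 members. The median difference of the tested members ranged from -0.06 with each array's median as a term in the fit to 0.13 with array weights, and from 0.04 to 0.17 with 1 array left out. Over the 26 named members, 391 of 422 alternative differences kept their sign and 31 reversed, with the smallest adjusted p at 0.187. With each array's median as a term, the differences were 0.084 for Ighm, -0.036 for Ighmbp2, -0.50 for Ighv10-1, -0.33 for Ighv10-3, -0.16 for Ighv2-3, -0.076 for Ighv2-4, 0.0055 for Ighv4-1, -0.46 for Igkv4-56 and -0.33 for Igkv4-63. With the gap between positive and negative control probe sets as a term they were -0.027 for Ighmbp2, -0.24 for Ighv10-1, -0.12 for Ighv10-3, -0.011 for Ighv2-3, -0.015 for Ighv2-4 and -0.19 for Igkv4-56. With each array centred on its median they were -0.026 for Ighmbp2, -0.035 for Ighv10-1 and -0.062 for Igkv4-56, and with array weights -0.023 for Igkv4-56. With 1 array left out in turn, signs turned within -0.0047 to 0.061 for Ighmbp2, -0.67 to 0.042 for Ighv1-2, -0.25 to 0.32 for Ighv10-1, -0.080 to 0.38 for Ighv10-3, -0.29 to 0.10 for Ighv4-1, -0.24 to 0.24 for Igkv4-56 and -0.13 to 0.51 for Igkv4-63. The cause was not tested. Signal near the negative control probe sets limits what can be seen for most members.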
